A study of Mus musculus with 53 samples.

Results

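The simple epithelial keratins Krt7, Krt8, Krt18 and Krt19 were followed over 53 Affymetrix arrays of mouse embryonic stem (ES) cells and of cells derived from them. A gene was read from the probe sets annotated with its symbol and no other, and the brightest of these on average led where there were several. The 4 keratins are 4 of the 18193 genes covered in this way. Krt7, Krt18 and Krt19 have 1 probe set each and Krt8 has 3. All 4 lead probe sets were among the 13807 genes tested, which lay above the median of the array in at least 2 arrays. Krt8 and Krt18 did so in 49 of the 53 arrays, Krt19 in 47 and Krt7 in 35.

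The study asked how loss of Ezh2 or Eed, 2 Polycomb proteins that act together in a complex that methylates histone H3, alters expression in undifferentiated and differentiating ES cells. Ezh2-null ES cells gave 6 arrays at day 0, 4 at day 2, 5 at day 6 and 2 at day 8 of withdrawal of LIF, the cytokine that keeps mouse ES cells undifferentiated. Eed-null ES cells gave 5, 2 and 2 arrays at days 0, 2 and 6. Wild-type ES cells gave 7 arrays at day 0 (3 of the line E14tg1, 2 of CJ7 and 2 of J1), 4 at day 2 (2 of CJ7 and 2 of J1), 5 at day 6 (2 of CJ7 and 3 of J1) and 2 at day 8, both of CJ7. The further groups were mesoendodermal cells sorted by GFP under the brachyury promoter (T-GFP, 2 arrays), neural progenitors marked by Sox1-GFP (3), neural stem cells (NSC) derived from progenitors (2) and mouse embryonic fibroblasts (MEF, 2). No line is named for the mutants, and the labels speak of 2 mutant lines in all, so genotype and cell line cannot be told apart. The wild-type and mutant ES cells had been grown on feeder cells, and these were depleted by letting them attach to plates before harvest. The arrays are labelled biological replicates, but whether cultures were separate is not said, so a p-value measures the spread between these samples, which may be technical.

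Keratins are the intermediate filament proteins of epithelia and assemble only as pairs of a type I and a type II chain. Krt7 and Krt8 are type II chains, and Krt18 and Krt19 are type I chains. Krt8 and Krt18 are the first keratins of the mouse embryo, made in the trophectoderm and later in simple epithelia such as liver and gut, while Krt7 and Krt19 mark trophoblast and ductal epithelia. Mouse Krt8 and Krt18 are neighbours on chromosome 15, with no protein-coding gene annotated between them, and Krt7 lies on the same chromosome in the type II cluster. Krt19 lies on chromosome 11 with most other type I genes.

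The promoters of the 3 genes on chromosome 15 are shown because Krt8 and Krt18 moved together in these arrays while Krt7 parted from them in the mutants. Each runs from 250 bases before the RefSeq start site to 50 bases after it (GRCm38.p6), at chr15:101412153-101412452 on the plus strand for Krt7, chr15:102004293-102004592 on the minus strand for Krt8 and chr15:102027966-102028265 on the plus strand for Krt18. Capitals mark matches, on either strand, to the letters TATAA and GGGCGG.
Krt7: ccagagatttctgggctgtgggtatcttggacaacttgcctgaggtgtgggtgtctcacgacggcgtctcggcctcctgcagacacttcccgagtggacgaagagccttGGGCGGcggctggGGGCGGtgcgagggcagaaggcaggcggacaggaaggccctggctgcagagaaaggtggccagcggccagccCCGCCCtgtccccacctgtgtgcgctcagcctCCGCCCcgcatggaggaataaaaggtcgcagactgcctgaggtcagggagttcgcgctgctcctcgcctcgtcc
Krt8: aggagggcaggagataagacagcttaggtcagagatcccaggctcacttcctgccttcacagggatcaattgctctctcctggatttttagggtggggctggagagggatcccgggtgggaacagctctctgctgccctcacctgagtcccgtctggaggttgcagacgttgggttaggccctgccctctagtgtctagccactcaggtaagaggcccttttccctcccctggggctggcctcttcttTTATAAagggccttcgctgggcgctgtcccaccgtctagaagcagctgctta
Krt18: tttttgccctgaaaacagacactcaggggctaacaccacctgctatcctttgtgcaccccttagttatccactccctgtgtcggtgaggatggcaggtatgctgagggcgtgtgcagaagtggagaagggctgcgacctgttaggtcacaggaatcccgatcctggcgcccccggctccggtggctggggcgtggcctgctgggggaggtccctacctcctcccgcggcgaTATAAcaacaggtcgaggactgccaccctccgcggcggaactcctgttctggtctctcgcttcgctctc
The letters TATAA occurred once in the Krt18 window, as 2 overlapping matches on opposite strands in that of Krt8 and not in that of Krt7, and 24.9% of 32851 promoters of the same length held them. GGGCGG occurred 4 times in the Krt7 window and in neither of the other two, and 35.7% of promoters held it. The Krt7 window had 21 CpG pairs, that of Krt18 had 17 and that of Krt8 had 6, against a median of 7 over all promoters. TGANTCA, the AP-1 letters, which 7.81% of promoters held, occurred in none of the 3 windows. These matches describe the sequence and were not tested as sites.

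Ezh2 signal was 213.8 ± 31.6 in Ezh2-null cells and 1451 ± 247 in wild-type cells at day 0 (SD, n = 6 and 7), and its highest Ezh2-null value over all days was 245.9, against a lowest wild-type value of 652.7. The lead Eed probe set was not lower in Eed-null cells (2956 ± 130 against 2536 ± 276 at day 0) and does not check that label. All 4 mesoendodermal markers lay above the array median in T-GFP cells, all 5 neural progenitor markers in Sox1-GFP cells, all 5 neural stem cell markers in NSC, 10 of 11 fibroblast markers in MEF and all 6 ES cell markers in every ES cell group of day 0. In bulk arrays, fewer cells of a type and less RNA per cell cannot be told apart. The arrays of days 2 and 6 fell into 2 sets by the relative signal of 6404 probe set pairs, each pair from 1 gene. The second set held wild-type and Ezh2-null replicates 3 and 4 of day 2 and 3 to 5 of day 6 and every Eed-null array of both days.

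**Figure D1:**
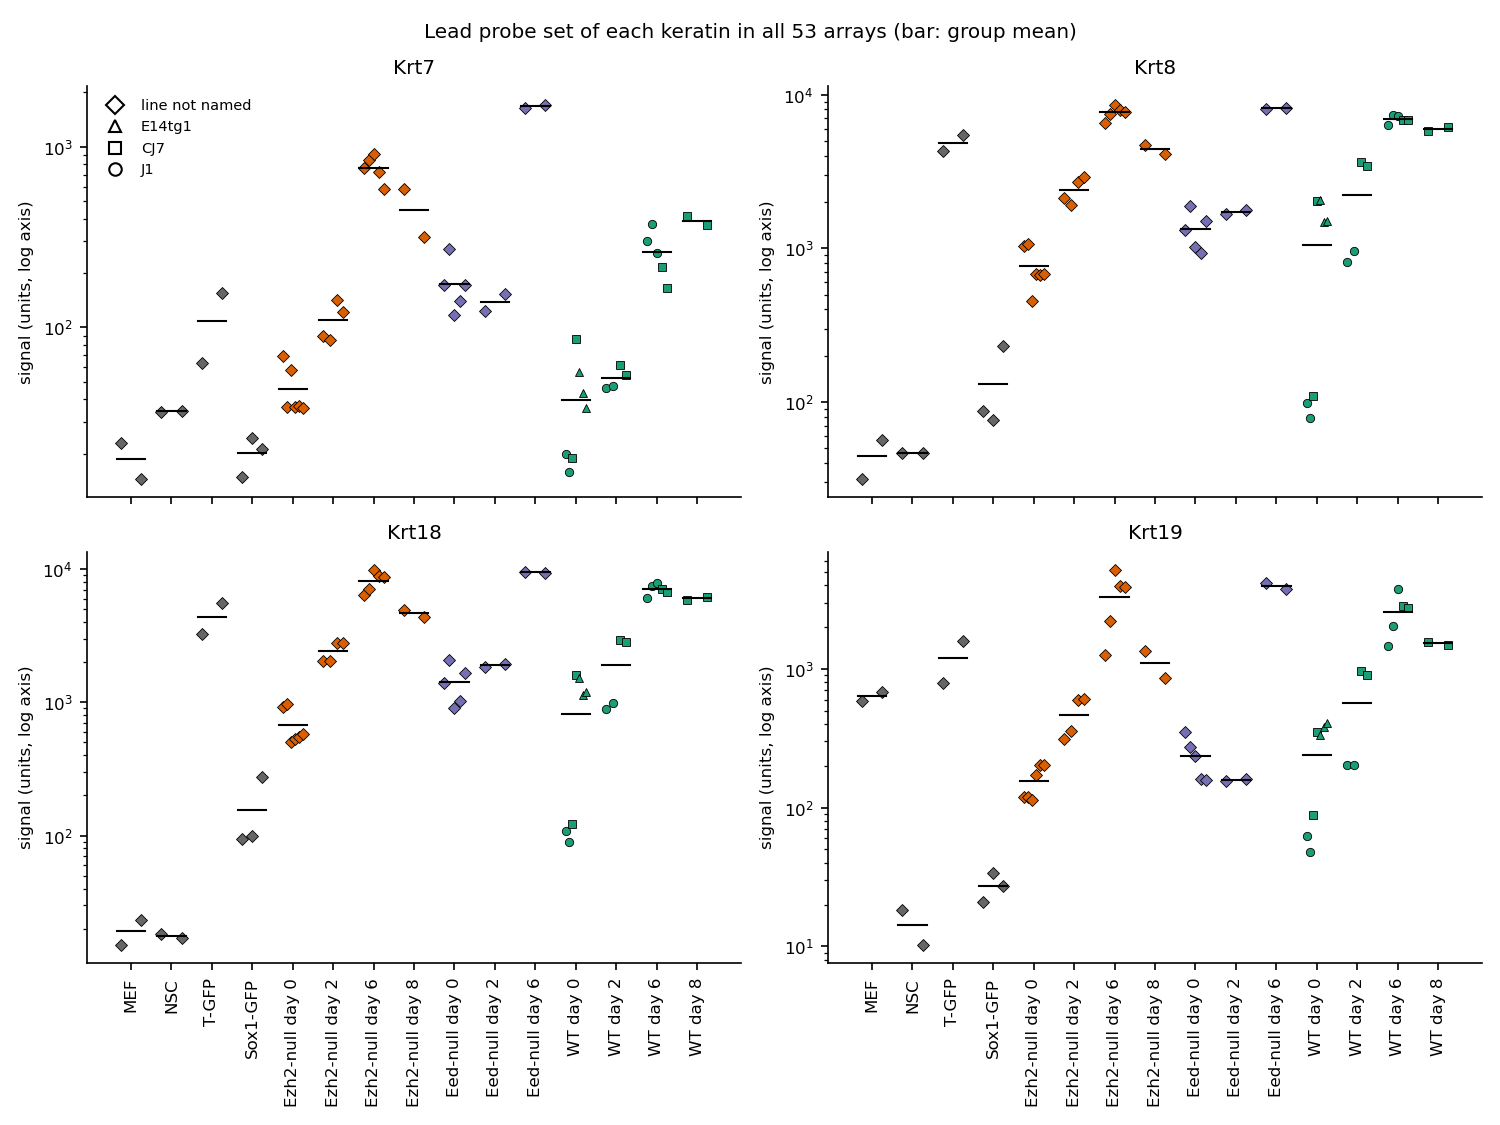
Signal of the lead probe set of each keratin in all 53 arrays on a log axis, by group, with the marker shape giving the cell line where the title names it and a bar at the group mean. Krt8 and Krt18 lie lowest in MEF and NSC and highest at day 6, Krt19 is high in MEF, and the 7 wild-type arrays of day 0 spread widely.

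Undifferentiated wild-type cells were not uniform in Krt8 and Krt18. Krt8 read 2049, 1482 and 1507 signal units in the 3 E14tg1 arrays (replicates 5 to 7), 109.9 and 2038 in the 2 CJ7 arrays (replicates 3 and 4) and 98.9 and 78.5 in the 2 J1 arrays (replicates 1 and 2). Krt18 read 1512, 1134 and 1191 in E14tg1, 121.6 and 1610.2 in CJ7 and 107.3 and 89.3 in J1. Thus 4 arrays were high and 3 low for both genes, nothing lay between, and the CJ7 arrays fell on either side. The line of these arrays rests on the titles alone, so a mislabelled array could not be told apart from a difference within CJ7, and every comparison between lines rests on these titles. Krt19 followed the same division, with 330.9, 379.2 and 403.6 in E14tg1, 88 and 351.5 in CJ7 and 62.4 and 48 in J1. Krt7, whose signal was near the array medians, gave 56.3, 43.3 and 35.8 in E14tg1, 19 and 85.8 in CJ7 and 19.9 and 15.9 in J1. The replicates low in Krt8 were low in Krt7 as well.

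On the log2(signal + 32) scale the SD of Krt8 over these 7 arrays was 2.05, the fifth largest among the genes tested, and that of Krt18 was 1.79, rank 11. Krt19 (1.11) ranked 43 and Krt7 (0.48) ranked 593, and the median SD over all genes was 0.171. The spread was narrower within Ezh2-null cells of day 0, where Krt8 had an SD of 0.44 and Krt18 of 0.40, and within Eed-null cells, where they had 0.41 and 0.48.

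Between lines, 3 of the 4 keratins were higher in E14tg1 than in J1, where limma called 2.46% of all genes (a call needs 2-fold and an adjusted p under 0.05). Krt8 differed by 3.81 ± 0.55 (log2 fold change ± SE, adjusted p = 8.2e-06), Krt18 by 3.32 ± 0.50 (adjusted p = 1.52e-05) and Krt19 by 2.21 ± 0.50 (adjusted p = 0.00226). All E14tg1 arrays were among the high arrays and both J1 arrays among the low ones. Line and the division into high and low arrays, which also parts the CJ7 arrays, thus cannot be told apart in this comparison. Krt7 differed by 0.62 ± 0.28 and was not called (adjusted p = 0.17). Without J1 replicate 2, Krt19 was not called (2.09, adjusted p = 0.0586). E14tg1 against CJ7 gave 0 of 4 keratins and 0 of 13807 genes (0%) in limma, with 2 keratins and 752 genes at an unadjusted p under 0.05. CJ7 against J1 also gave 0 of 4, with all 4 at an unadjusted p under 0.05 and 0.471% of genes called. Both counts turned on which CJ7 array was kept. Without CJ7 replicate 3 all 4 keratins were called against J1 (Krt8 4.11 and Krt18 3.66), and without CJ7 replicate 4 Krt8 (3.58) and Krt18 (3.08) were called higher in E14tg1 than in CJ7.

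**Figure D2:**
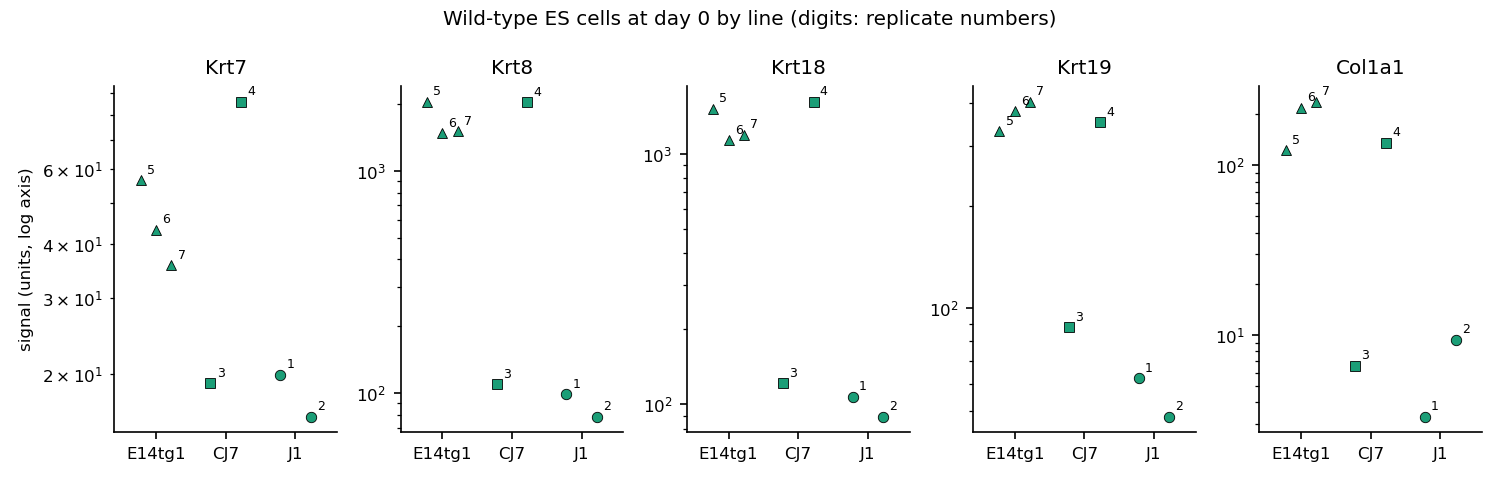
Signal of the 4 keratins and of the collagen gene Col1a1 in the 7 wild-type arrays of day 0 on log axes, by line, with replicate numbers beside the points. Replicates 4 to 7 lie above replicates 1 to 3 in all 5 panels, and the CJ7 line has an array in each range.

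The fibroblast markers Col1a1 and Col1a2 moved with this division, while Col3a1 overlapped between its parts. Col1a2 read 76 to 102.9 in replicates 1 to 3 and 268.8 to 512.3 in replicates 4 to 7. Col3a1 read 61.5 to 76 and 64.4 to 122.4 in the same order. Col1a1, a fibrillar collagen gene, read 122.5, 218.2 and 236.6 in E14tg1, 6.6 and 136.1 in CJ7 and 3.3 and 9.4 in J1, so the arrays low in Krt8 were those low in Col1a1. The summed signal of the 11 fibroblast markers ran from 539.7 to 2004 over the 7 arrays. Fibroblasts themselves gave Krt8 31.7 and 56.9 and Krt18 15.2 and 23.1 in the 2 MEF arrays, below the array median in both, and Krt19 590 and 677.1. In replicates 4 to 7 Col1a1 amounted to 2.06 to 3.98% of the lower MEF value, and Krt19 to 56.1 to 68.4% of it. Within Eed-null cells of day 0, replicate 5 had Col1a1 at 9 and the other 4 arrays at 517.9 to 787.6, while Krt8 was 1510 in replicate 5 and 926.1 to 1893 in the others. The part of fibroblasts, or of anything else, in the keratin values of these arrays was not tested.

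After LIF withdrawal all 4 keratins rose in wild-type cells. Krt8 at day 6 read 6314, 7366 and 7261 in J1 and 6811 and 6816 in CJ7, and Krt18 read 6058, 7523 and 7821 in J1 and 7041 and 6761 in CJ7. These values spanned a narrow range in both lines and lay above every day 0 array. Against day 0, Krt8 rose by 3.59 ± 0.51 (adjusted p = 9.96e-08), Krt18 by 3.78 ± 0.45 (adjusted p = 2.29e-09), Krt19 by 3.51 ± 0.38 (adjusted p = 1.94e-10) and Krt7 by 2.07 ± 0.19 (adjusted p = 2.05e-12), where 10.3% of genes were called. Among the 13807 fold changes, Krt18 ranked 7, Krt8 ranked 11, Krt19 ranked 13 and Krt7 ranked 153 from the highest. The size of the rise depended on the day 0 arrays. For Krt8 it was 1.96 with day 0 replicates 1 to 3 left out and 5.77 with replicates 4 to 7 left out, and for Krt18 it was 2.35 and 5.68 in the same order. These subsets follow the keratin values themselves, so here and below the values under them are descriptions and not tests.

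Day 2 lay between, and its 2 lines stood apart. At day 2, Krt8 read 3617 and 3454 in CJ7 and 813.7 and 954.1 in J1, Krt18 read 2924 and 2822 in CJ7 and 898.6 and 984.5 in J1, and Krt19 read 966.4 and 906.5 in CJ7 and 201.5 and 201.9 in J1. Every CJ7 array was above both J1 arrays in these 3 genes, and line and array set coincide in wild-type cells of day 2, so they cannot be told apart. Krt7 was 61.9 and 54.3 in CJ7 and 46.1 and 47.4 in J1. Against day 0, 3 keratins were called higher at day 2, where 3.43% of genes were called: Krt8 by 1.65 ± 0.55 (adjusted p = 0.0166), Krt18 by 1.71 ± 0.48 (adjusted p = 0.00539) and Krt19 by 1.13 ± 0.41 (adjusted p = 0.0279). All 3 overlapped with day 0, and with day 0 replicates 1 to 3 left out the differences were 0.02 for Krt8, 0.29 for Krt18 and 0.26 for Krt19. Array weights turned Krt8 to -0.35 and Krt19 to -0.40. Leaving out any 1 of day 0 replicates 1 to 3 or of day 2 replicates 3 and 4 ended the calls of Krt8 (1.26 to 1.34) and of Krt19 (0.78 to 0.99).

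From day 2 to day 6 the 4 keratins rose again, where 4.51% of genes were called. Krt7 read 301.4, 372.4 and 257.2 in J1 and 215.2 and 165.3 in CJ7 at day 6, a rise of 1.76 ± 0.22 over day 2 (adjusted p = 2.46e-08), and Krt19 read 1454, 2044 and 3750 in J1 and 2840 and 2746 in CJ7, a rise of 2.38 ± 0.44 (adjusted p = 4.07e-05). Krt8 rose by 1.94 ± 0.58 and Krt18 by 2.07 ± 0.52. Krt19 was lower in the first array set (replicates 1 and 2 of day 6) than in the second, and Krt7 was higher. Krt7 was also higher in J1 than in CJ7. Line and array set coincide at day 6 except in J1 replicate 3, which is in the second set with both CJ7 arrays. Its Krt7 value, 257.2, lay below the other J1 arrays and above both CJ7 arrays. With this single array, line and array set were not separated for Krt7. In the second set alone the calls of Krt8 (0.97, adjusted p = 0.43) and Krt18 (1.31, adjusted p = 0.20) were lost, and without wild-type replicate 1 or 2 of day 2 Krt8 was not called (1.58 and 1.65). At day 8, the 2 CJ7 arrays gave Krt7 412.8 and 366.4, Krt8 5761 and 6170, Krt18 5892 and 6157, and Krt19 1564 and 1486. Against day 6, limma called 0 of 4 keratins at day 8, with 1 (Krt7, 0.56 ± 0.27) at an unadjusted p under 0.05, and 0.963% of genes. Day 8 held CJ7 alone, while day 6 pooled both lines. Within CJ7, both arrays of day 8 lay above both arrays of day 6 in Krt7 and below them in Krt8, Krt18 and Krt19. Both CJ7 arrays of day 6 were in the second array set, and those of day 8 were not assigned to a set.

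**Figure D3:**
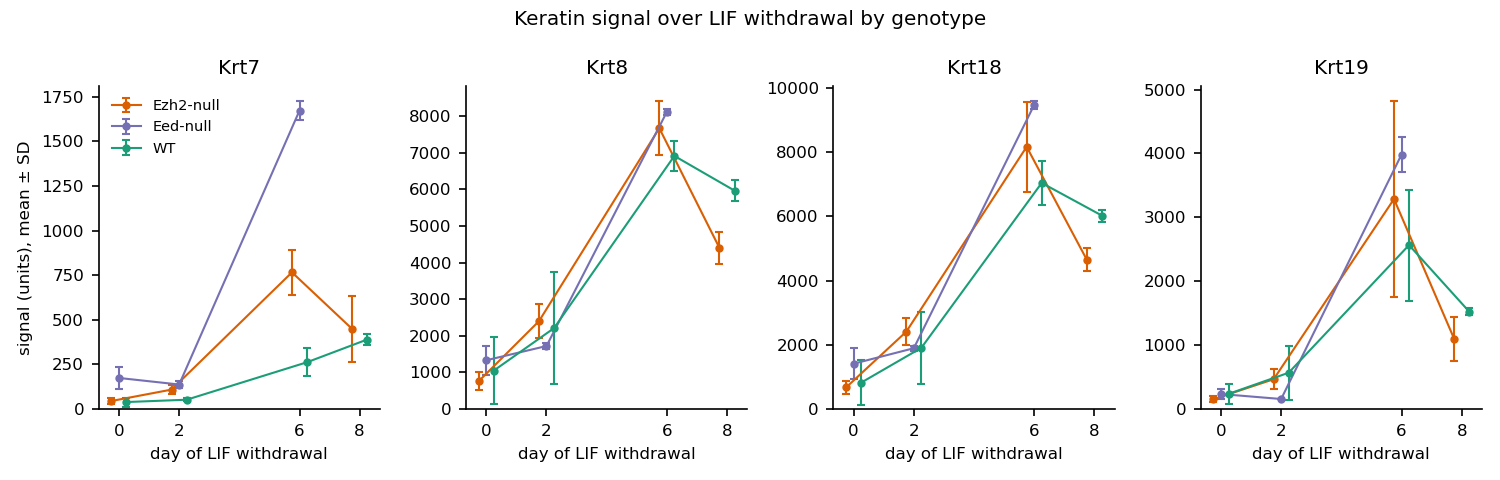
Mean signal and SD of each keratin by day of LIF withdrawal in Ezh2-null, Eed-null and wild-type cells, on linear axes that start at 0, with groups shifted sideways for clarity. Krt7 separates the genotypes at day 6, with means of 766 in Ezh2-null, 1671 in Eed-null and 262 in wild-type cells, while the other 3 keratins rise in all genotypes.

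All 4 keratins also rose over 6 days in the mutants. In Ezh2-null cells, where 16.3% of genes were called between day 6 and day 0, Krt7 rose by 3.37 ± 0.20, Krt8 by 3.33 ± 0.53, Krt18 by 3.57 ± 0.47 and Krt19 by 4.03 ± 0.39 (adjusted p from 1.49e-18 to 6.29e-07). In Eed-null cells, where 10.1% were called, Krt7 rose by 3.09 ± 0.27, Krt8 by 2.62 ± 0.73, Krt18 by 2.78 ± 0.65 and Krt19 by 3.96 ± 0.54 (adjusted p from 5.28e-12 to 0.00387). No array of day 6 overlapped day 0 in either genotype, but the share of all genes that separate in this way was not counted. With Eed-null replicate 5 as the lone array of day 0, the calls of Krt8 (2.40, adjusted p = 0.12) and Krt18 (2.50, adjusted p = 0.0658) were lost, and its spread was then assumed to equal that of the other groups.

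Krt7 was the keratin that parted both mutants from wild type at day 6. At day 6 it read 767, 848, 912.5, 720.4 and 580.7 in Ezh2-null cells and 1635 and 1708 in Eed-null cells, against 301.4, 372.4, 257.2, 215.2 and 165.3 in wild-type cells. Every mutant array was above every wild-type array, and both Eed-null arrays were above all Ezh2-null arrays. In Krt8, Krt18 and Krt19 both Eed-null arrays also lay above every wild-type array, while Ezh2-null arrays overlapped wild type. The share of all genes that separate in this way was not counted. The Krt7 difference from wild type was 1.47 ± 0.21 in Ezh2-null cells (adjusted p = 4.25e-07, 3.03% of genes called) and 2.58 ± 0.27 in Eed-null cells (adjusted p = 2.65e-09, 3.1% called), where it was the fifth largest of 13807 fold changes. Krt7 was the 1 keratin of 4 called in each. These 2 comparisons share their wild-type arrays. No setting tried and no left-out array ended either call, and within the second array set alone they were 1.65 and 2.82.

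In undifferentiated cells Krt7 was raised in Eed-null cells. It read 171.5, 271.6, 116.6, 140.3 and 171.5 in Eed-null cells, and in wild-type cells the lowest, median and highest values were 15.9, 35.8 and 85.8. The 2 groups did not overlap, and the difference was 1.56 ± 0.19 (adjusted p = 1.59e-08), where 2.26% of genes were called. With Eed-null replicate 5 alone, the array with little Col1a1, it was 1.58 ± 0.34 (adjusted p = 0.00316). With the larger of the 2 alternative pseudocounts it was below 2-fold (0.85). In Ezh2-null cells Krt7 read 35.8 at the lowest, 36.5 in the median and 69.1 at the highest, within the wild-type range. Against Eed-null cells it was lower (-1.39 ± 0.20, adjusted p = 3.61e-07), the 1 keratin called there, where 2.2% of genes were called.

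Endoderm genes were higher together with Krt7 in Eed-null cells of day 0. Of 15 endoderm genes 7 were called higher than in wild-type cells and 0 lower, where 2.26% of all genes were called. The median of the list was 0.96 against 0.04 over all genes. Among the 7 were Col4a2 (1.88 ± 0.19) and Col4a1 (1.76 ± 0.20), which encode collagens of basement membranes. The adaptor Dab2 (1.52 ± 0.20) and Amn (1.27 ± 0.15), a receptor subunit of visceral endoderm, were others. The trophoblast and mesoderm factor Hand1 (1.87 ± 0.31) was higher as well, the 1 gene called of 9 trophoblast genes. The claudin Cldn3 (1.54 ± 0.16) was the 1 called of 17 epithelial junction genes, and 0 of 13 other keratins were called. In MEF against the same wild-type cells 4 of the 15 endoderm genes were called higher and 0 lower, where 24.1% of all genes were called. Col1a1 in Eed-null replicates 1 to 4 of day 0 amounted to 8.71 to 13.3% of the lower MEF value. The part of endoderm, trophoblast or mesoderm cells, or of feeder fibroblasts, in these differences and in that of Krt7 was not tested.

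At day 2 Krt7 read 90, 84.7, 140.8 and 121.2 in Ezh2-null cells and 123 and 152 in Eed-null cells, against 46.1, 47.4, 61.9 and 54.3 in wild-type cells. Both mutants lay above wild type with no overlap. The Eed-null difference was called (1.00 ± 0.28, adjusted p = 0.0288, 1.04% of genes called) but lay at the 2-fold minimum. It was not called within the second array set alone (0.91), nor without wild-type replicate 1 (0.97) or 2 (0.98) or either Eed-null array (1.13 and 0.88). The Ezh2-null difference missed the threshold (0.73 ± 0.23, adjusted p = 0.13). In that comparison limma called 0 of 4 keratins, with 1 at an unadjusted p under 0.05, and 0.123% of genes. At day 8 Krt7 was 579.6 and 317.9 in Ezh2-null cells and 412.8 and 366.4 in wild-type cells, which overlapped.

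**Figure D4:**
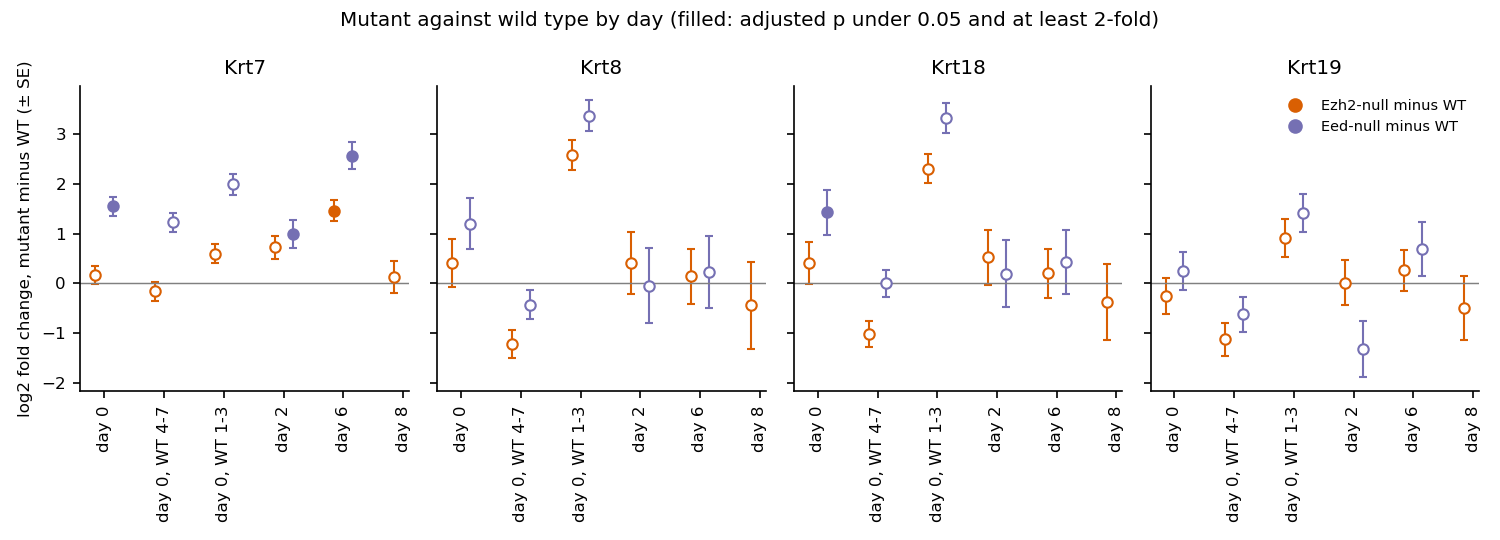
Log2 fold change, mutant minus wild type, with its standard error, for each keratin by day, in Ezh2-null and Eed-null cells. The entries WT 4-7 and WT 1-3 repeat day 0 against those wild-type replicates alone and are drawn unfilled, with no test, because these subsets follow the keratin values, and in the other entries filled points passed an adjusted p under 0.05 and 2-fold. Krt7 is raised at day 6 in both mutants (1.47 and 2.58), while Krt8 and Krt18 of Ezh2-null cells change sign between the wild-type subsets.

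For Krt8 and Krt18 at day 0 the comparison with wild type depended on which wild-type arrays were used. Krt8 read 1039, 1060, 452.5, 675.9, 673.4 and 675.7 in Ezh2-null cells, with a lowest value of 78.5, a median of 1482 and a highest of 2049 in wild-type cells. Krt18 read 918.1, 971.5, 507.2, 528.2, 546 and 575.9 in Ezh2-null cells, with 89.3, 1134 and 1610.2 in wild-type cells. The Ezh2-null arrays thus lay in the gap between the low and the high wild-type arrays. Against all 7, limma called 0 of 4 keratins in Ezh2-null cells, 0 of them at an unadjusted p under 0.05, and 7 genes in all (0.0507%). Krt8 differed by 0.41 ± 0.48 and Krt18 by 0.41 ± 0.43, while the ratios of the mean signals were 0.725 and 0.819, which is the opposite direction. With wild-type replicates 1 to 3 left out the differences were -1.22 for Krt8 and -1.01 for Krt18, and with replicates 4 to 7 left out they were 2.59 and 2.31. Both directions follow from the division itself, since the wild-type arrays were divided by these genes and the Ezh2-null arrays lie between the parts.

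Eed-null cells of day 0 gave Krt8 at 1323, 1893, 1017, 926.1 and 1510 and Krt18 at 1408, 2077, 907.8, 1018 and 1652, all above the 3 low wild-type arrays. In Krt8, 3 of the 5 Eed-null arrays lay below all 4 high wild-type arrays, and in Krt18, 2 did. Krt18 was called higher than in all 7 wild-type arrays (1.43 ± 0.45, adjusted p = 0.00992), with overlap, and Krt8 was not (1.20 ± 0.51, adjusted p = 0.0540). With wild-type replicates 1 to 3 left out the Krt18 difference was 0.00 and that of Krt8 turned to -0.43, and without any 1 of replicates 4 to 7 Krt8 was called as well (1.44 to 1.51). The Krt18 call was also lost with same-numbered replicates as a block (1.92, adjusted p = 0.0511) and with replicate 5 as the lone Eed-null array (1.71, adjusted p = 0.26). Krt19 at day 0 read 350.3, 273.4, 233.8, 161.8 and 158.1 in Eed-null cells and 119.5, 119.1, 112.8, 170.5, 202.5 and 202.2 in Ezh2-null cells, both within the wild-type range of 48 to 403.6.

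During differentiation neither Krt8 nor Krt18 was called between a mutant and wild type. At day 2 Krt8 read 2113, 1913, 2682 and 2896 in Ezh2-null cells and 1659 and 1785 in Eed-null cells, against 813.7 and 954.1 in wild-type cells of the first array set and 3617 and 3454 in those of the second. Ezh2-null replicates 1 and 2 thus lay above and replicates 3 and 4 below the wild-type arrays of the same set, and the Eed-null arrays lay below those of their set. The Ezh2-null difference in Krt8 was 0.41 ± 0.62 over all arrays, 1.16 ± 0.95 within the first set and -0.34 ± 0.89 within the second, and the Eed-null difference was -0.04 ± 0.75 over all arrays and -1.02 ± 0.89 within the second set. With array weights Krt8 (1.08 ± 0.39) and Krt18 (1.01 ± 0.35) were called higher in Ezh2-null cells of day 2.

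At day 6 Krt8 read 6558, 7519, 8587, 7941 and 7747 in Ezh2-null cells and 8051 and 8177 in Eed-null cells, against 6314 to 7366 in wild-type cells. In Eed-null cells the differences of 0.23 ± 0.73 in Krt8, 0.43 ± 0.65 in Krt18 and 0.70 ± 0.54 in Krt19 were not called. The spread of each gene is estimated over all groups, so these standard errors carry the division among wild-type arrays of day 0. With only the arrays compared, the Krt8 difference in Eed-null cells was 0.23 ± 0.11 (adjusted p = 0.24) and that of Krt18 was 0.43 ± 0.13 (adjusted p = 0.0733). In Ezh2-null cells Krt8 differed by 0.15 ± 0.55 and Krt18 by 0.20 ± 0.49. Krt8 was higher in Ezh2-null cells in 5 of 5 same-numbered pairs of day 6 and Krt18 in 4 of 5, and with these pairs as a block the differences were 0.15 ± 0.08 (adjusted p = 0.22) and 0.20 ± 0.09 (adjusted p = 0.17). At day 8 Krt8 was 4705 and 4093 in Ezh2-null cells and 5761 and 6170 in wild-type cells, and Krt18 was 4898 and 4399 against 5892 and 6157. The day 8 differences were -0.44 ± 0.87 in Krt8, -0.37 ± 0.77 in Krt18 and -0.49 ± 0.65 in Krt19. In that comparison limma called 0 of 4 keratins, 0 of them at an unadjusted p under 0.05, and 1.06% of genes.

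Krt19 varied with the array set at days 2 and 6. At day 6 it read 1257 and 2226 in Ezh2-null replicates 1 and 2 and 5113, 3969 and 3870 in replicates 3 to 5, and the wild-type arrays showed the same order. At day 2 it read 156 and 159.4 in Eed-null cells, 313.5, 358.7, 591.7 and 604.6 in Ezh2-null cells and 201.5 to 966.4 in wild-type cells. The Eed-null values at day 2 lay below all wild-type values. Against all wild-type arrays the difference was not called (-1.33 ± 0.56, adjusted p = 0.19), while it was with the array set as a block (-1.94 ± 0.46, adjusted p = 0.00595) and within the second set alone (-2.35 ± 0.52, adjusted p = 0.00319). The Eed-null arrays of day 2 all belong to the second set, whose wild-type arrays are all of CJ7.

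The change over 6 days differed between genotypes for 1 of the 4 keratins, Krt7. The rise was larger by 1.30 ± 0.27 in Ezh2-null than in wild-type cells (adjusted p = 0.000656), where this interaction was called for 3.09% of genes. In Eed-null cells it was larger by 1.02 ± 0.33 (adjusted p = 0.027), with 4.69% of genes called, and Eed-null cells also began from a higher level. The Ezh2-null interaction of Krt7 was not called with wild-type day 0 replicates 4 to 7 left out (0.86). The Eed-null one lay at the 2-fold minimum and was lost in the same way (0.58), at a pseudocount of 8 (0.64, adjusted p = 0.33), and without any 1 of 9 arrays: wild-type day 0 replicates 4, 5 or 6, Eed-null day 0 replicates 3 or 4, wild-type day 6 replicates 4 or 5, or either Eed-null array of day 6 (0.88 to 1.05). With wild-type day 0 replicates 1 to 3 left out, the Ezh2-null interaction was 1.36 for Krt8 and 1.22 for Krt18, and with replicates 4 to 7 left out it was -2.44 and -2.11.

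In the sorted and derived cells, keratins were high in mesoendoderm and low along the neural route. T-GFP cells gave Krt8 at 4271 and 5441 and Krt18 at 3245 and 5533, and Sox1-GFP cells gave Krt8 at 87.6, 76.7 and 231.4 and Krt18 at 95, 99 and 273. Krt19 was 787.6 and 1599 in T-GFP cells and 20.8, 33.7 and 27 in Sox1-GFP cells, and Krt7 was 63.7 and 154.3 in T-GFP cells and 14.8, 24.5 and 21.1 in Sox1-GFP cells. The groups did not overlap in any keratin, but the share of all genes that separate in this way was not counted. All 4 were called higher in T-GFP cells, where 10.3% of genes were called: Krt8 by 5.01 ± 0.80 (adjusted p = 2.37e-06, the third largest fold change), Krt18 by 4.64 ± 0.71, Krt19 by 4.29 ± 0.59 and Krt7 by 1.36 ± 0.30. Krt7 was not called without T-GFP replicate 2 (0.88, adjusted p = 0.0711). Compared with unsorted wild-type cells of day 6, T-GFP cells were lower in Krt7 (-1.10 ± 0.27, adjusted p = 0.0151), the 1 keratin called there, where 0.659% of genes were called. That call was lost without T-GFP replicate 1 (-0.62, adjusted p = 0.49) or wild-type replicate 2 (-0.97).

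Sox1-GFP cells were lower than undifferentiated wild-type cells in 3 keratins, where 13.4% of genes were called. Krt8 differed by -1.93 ± 0.60 (adjusted p = 0.00717), Krt18 by -1.58 ± 0.53 (adjusted p = 0.0132) and Krt19 by -1.88 ± 0.45 (adjusted p = 0.00053). Sox1-GFP cells overlapped the low wild-type arrays in Krt8 and Krt18. With wild-type replicates 4 to 7 left out the signs of Krt8 (0.25) and Krt18 (0.32) turned. Krt8 was not called without Sox1-GFP replicate 2 (-1.69), nor Krt18 without replicate 1 (-1.36) or 2 (-1.38).

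NSC gave the lowest Krt18 and Krt19 means of the 15 groups. Krt18 was 18.1 and 17.1 and Krt19 was 18.4 and 10.3 in NSC, all below the array median. Against Sox1-GFP cells, Krt18 was called lower in NSC (-1.79 ± 0.71, adjusted p = 0.0375), the 1 keratin called there, where 14.3% of genes were called, and no call remained without NSC replicate 1 (-1.81) or 2 (-1.78) or Sox1-GFP replicate 3 (-1.38).

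Fibroblasts had Krt19 without the other 3 keratins above the array median. MEF were lower than undifferentiated wild-type cells in Krt8 (-2.93 ± 0.70, adjusted p = 0.000383) and Krt18 (-3.33 ± 0.62, adjusted p = 1.15e-05) and higher in Krt19 (1.61 ± 0.52, adjusted p = 0.00755), where 24.1% of genes were called. Without MEF replicate 2 Krt19 was not called (1.52, adjusted p = 0.076), and with wild-type replicates 1 to 3 left out it was 0.74, below 2-fold. With replicates 4 to 7 left out Krt8 was at -0.76. Against NSC, MEF were higher in Krt19 by 3.85 ± 0.65 (adjusted p = 3.91e-06), the 1 keratin called there, where 18.9% of genes were called. Both MEF arrays exceeded both NSC arrays in Krt19 (590 and 677.1 against 18.4 and 10.3).

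Ordered by the mean of log2(signal + 32) over the 15 groups, the 4 keratins had Eed-null cells of day 6 first and Ezh2-null cells of day 6 next. Krt8 averaged 8114 ± 89.0 in Eed-null (SD, n = 2), 7670.0 ± 738 in Ezh2-null (n = 5) and 6913 ± 420.0 in wild-type cells of day 6 (n = 5), and these neighbours overlapped. Below them came wild-type cells of day 8 (5966 ± 289), T-GFP cells (4856 ± 827), Ezh2-null cells of day 8 (4399 ± 433), and the groups of day 2 and day 0, most of which overlapped their neighbours. Sox1-GFP cells (132 ± 86.3, n = 3), NSC (46.5 ± 0.141, n = 2) and MEF (44.3 ± 17.8, n = 2) closed the order. Krt18 ran alike, with 9469 ± 117 in Eed-null, 8166 ± 1399 in Ezh2-null and 7041 ± 686 in wild-type cells of day 6, and with MEF (19.1 ± 5.59) and NSC (17.6 ± 0.707) overlapping at the end. For Krt7, Eed-null cells of day 6 (1671 ± 52.3), Ezh2-null cells of day 6 (766 ± 127) and the next group did not overlap, and wild-type cells of day 6 (262 ± 79.5) had rank 5, below both groups of day 8. For Krt19, MEF (634 ± 61.6) came seventh of the 15 groups, between Ezh2-null cells of day 8 and of day 2. Krt7 was also higher in NSC (33.8 and 34.6) than in any Sox1-GFP array, below the array median in both.

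**Figure D5:**
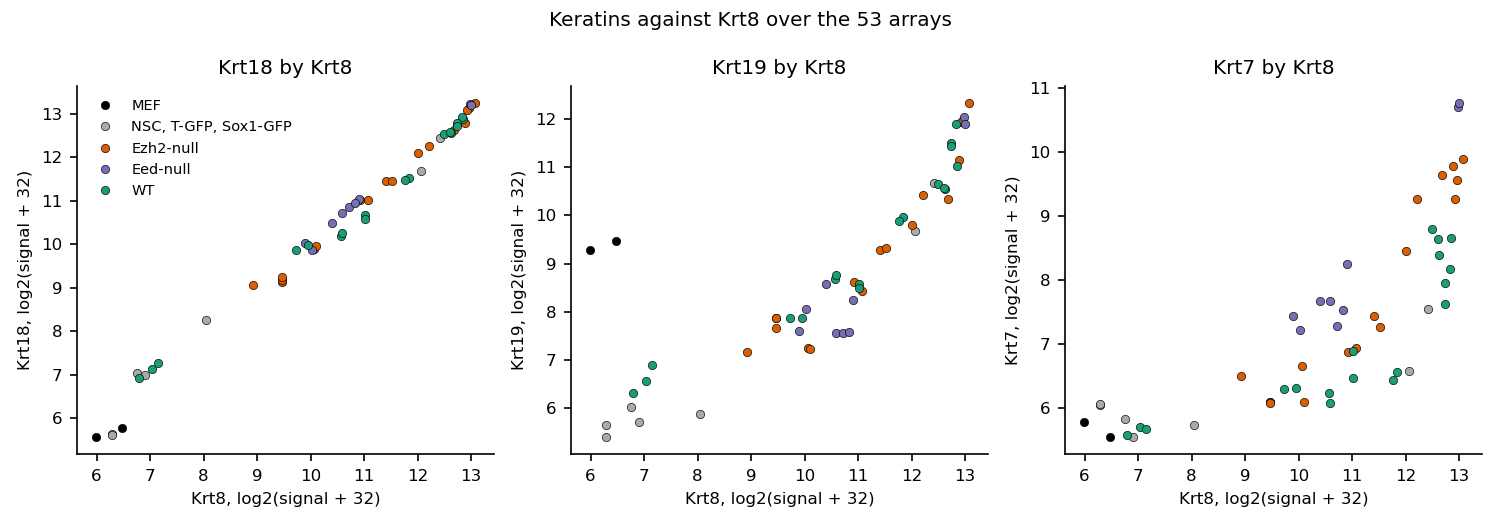
Log2(signal + 32) of Krt18, Krt19 and Krt7 against that of Krt8 in the 53 arrays, coloured by genotype or cell type. Krt18 follows Krt8 in a narrow band (r = 0.997 over group means), the 2 MEF arrays have far more Krt19 than other arrays of like Krt8, and mutant arrays of day 6 stand above wild-type arrays in Krt7.

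Krt8 and Krt18, which pair in simple epithelia, moved together. Over the 15 group means on the log2 scale their Pearson r was 0.997, and over the 53 deviations from group means, where arrays share their hybridisation and scaling, it was 0.989. Deviations of Krt8 and Krt18 were widest in wild-type cells of day 0 (SD 2.05 and 1.79) and day 2 (1.14 and 0.91). Over the 7 arrays of day 0 alone r was 0.9998, so r over deviations carries that division. Krt19 had r = 0.799 with Krt8 and 0.779 with Krt18 over group means, and Krt7 had 0.815 and 0.818. For deviations within groups Krt7 had 0.567 with Krt8 and 0.407 with Krt19. The other 2 Krt8 probe sets, whose names mark them as open to cross-hybridisation, each had r = 0.999 with the lead over the arrays and differed from it by 0.13 to 0.98 on the log2 scale.

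The genes closest in pattern to each keratin over the 15 group means were taken from 13803 genes by Pearson r. For Krt8 they were the claudin Cldn6 (0.975), the junctional adhesion molecule F11r (0.972) and the desmosomal plaque protein Dsp (0.957), and for Krt18 they were Cldn6 (0.978), F11r (0.975) and the desmosome-associated Perp (0.956). For Krt19 they were the filamin Flnc (0.973), Tes (0.963), a focal adhesion protein, and Card10 (0.957). For Krt7 they were the kinase gene Nrk (0.967), 3830417A13Rik (0.966) and Mbnl3 (0.959), a splicing regulator. Nrk averaged 1156 in Ezh2-null and 1614 in Eed-null cells of day 6, against 505 in wild-type cells. Cldn6 averaged 2352 in Ezh2-null and 3059 in Eed-null cells, against 1729 in wild-type cells of that day. Over the 7 wild-type arrays of day 0 the genes closest to Krt18 were Akt1s1, Sfn and Tgoln1 (r = 0.999 each). Sfn, an epithelial 14-3-3 protein, read 483.1, 436.1 and 450.9 in E14tg1, 101.1 and 544.5 in CJ7 and 100.8 and 91.7 in J1, the same division as Krt18.

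Other epithelial genes changed with differentiation in part, beside 823 genes called higher and 605 lower of all 13807 (10.3%) between day 6 and day 0 of wild-type cells. Of 13 tested other keratins 0 were called in limma between day 6 and day 0 in wild-type cells, at a median log2 change of 0.05 against 0.04 over all genes, and 2, Krt20 (1.47 ± 0.14) and Krt42 (1.42 ± 0.19), rose in Ezh2-null cells over that time, a share near the 16.3% of all genes called there. Of 13 desmosome and cytolinker genes, to which keratin filaments attach, 3 rose in wild-type cells (Dsp 2.79 ± 0.25, Dsc2 2.20 ± 0.22 and Perp 1.68 ± 0.27) and 0 fell, with a median of 0.34. Of 17 epithelial junction genes 4 rose (Cldn6 2.52 ± 0.19, Cldn7 2.02 ± 0.21, Cldn3 1.16 ± 0.16 and Ocln 1.00 ± 0.13) and 0 fell, with a median of 0.65. Among 13 other intermediate filament genes (median 0.19), Vim (1.76 ± 0.27) and Nefm (1.29 ± 0.32) rose and Nefh (-2.74 ± 0.21) and Ina (-2.02 ± 0.21) fell. Of 18 transcription factors of epithelia 3 rose and 2 fell, with a median of -0.03. Of 9 trophoblast genes 5 rose and 1 fell (median 1.05), of 15 endoderm genes 7 rose and 0 fell (median 0.98), and the 13 genes of primitive streak and mesoderm gave 11 higher and 0 lower (median 2.21). These lists share genes. Eomes and Hand1, which rose, count in both the trophoblast and the streak list. Gata3 and Cdx2, which rose, count in both the trophoblast list and that of transcription factors of epithelia.

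At day 6 the mutants differed from wild type in the last of these lists, while Krt8, Krt18 and Krt19 did not pass the test. Of the 13 streak and mesoderm genes, 10 were lower in Ezh2-null cells (Aplnr -3.79 ± 0.13 and Mixl1 -3.53 ± 0.30) and 10 in Eed-null cells (Aplnr -4.34 ± 0.18 and Mixl1 -3.90 ± 0.40), with medians of -1.52 and -1.63, against 0.00 over all genes in both. Among 17 epithelial junction genes 0 were called in Ezh2-null cells (median 0.20), and 3 were higher in Eed-null cells (median 0.64; Spint1 1.43 ± 0.17, Cldn3 1.04 ± 0.24 and Cldn4 1.71 ± 0.54). Of 13 desmosome and cytolinker genes, 1 was higher in Ezh2-null cells (Eppk1 1.12 ± 0.25, median 0.44) and 1 in Eed-null cells (Dsg2 1.09 ± 0.20, median 0.47). Of 18 transcription factors of epithelia 2 were higher in Ezh2-null cells (Tfap2a 1.05 ± 0.12 and Klf4 1.02 ± 0.23) and 1 in Eed-null cells (Tfap2a 1.35 ± 0.16), and 0 were lower in either. Of 9 trophoblast genes 0 were higher and 2 lower in Ezh2-null cells (Eomes -3.05 ± 0.31 and Hand1 -1.55 ± 0.34, median 0.23), and 2 were higher and 1 lower in Eed-null cells (Esx1 3.36 ± 0.17, Ascl2 1.19 ± 0.16 and Eomes -3.21 ± 0.41, median 0.59). Each trophoblast gene called lower is also in the streak and mesoderm list and was counted there. Over all genes 3.03% and 3.1% were called. The summed fibroblast markers ran from 1943 to 6877 in Ezh2-null, 1407 to 1506 in Eed-null and 1942 to 2509 in wild-type cells of day 6, and their part in these differences was not tested.

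Junction and desmosome genes were called along with the keratins in the sorted cells. In T-GFP against Sox1-GFP cells 7 of 13 desmosome genes were higher and 0 lower (Dsp 4.75 ± 0.39 and Dsg2 3.78 ± 0.21, median 1.06), and so were 10 of 17 junction genes (Cdh1 2.84 ± 0.18 and Epcam 2.83 ± 0.27, median 1.38), against a median of -0.07 over all genes, of which 10.3% were called. In Sox1-GFP cells against undifferentiated wild-type cells 6 of 13 desmosome genes and 7 of 17 junction genes were lower (Cdh1 -2.23 ± 0.13 and Epcam -2.51 ± 0.21) and 0 higher, with medians of -0.57 and -0.87, against 0.07 over all genes, of which 13.4% were called. In MEF against the same cells 5 desmosome genes were lower and 1, the cytolinker Plec (2.46 ± 0.25), was higher, and 9 junction genes were lower (Cdh1 -4.76 ± 0.16), with medians of -0.46 and -1.17 against 0.03 over all genes, of which 24.1% were called. Between E14tg1 and J1 at day 0, 2 desmosome genes were higher (Perp 1.90 ± 0.31 and Dsp 1.06 ± 0.36), as were 3 other intermediate filament genes (Nefl 1.84 ± 0.38, Synm 1.49 ± 0.33 and Nefm 1.53 ± 0.43), and 0 of 17 junction genes were called, where 2.46% of all genes were.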

How the data were processed

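RNA was extracted with Trizol and hybridised as biotinylated cRNA to 53 Affymetrix arrays, per the labels' protocols. The deposited table holds a linear intensity for each probe set, used unchanged. The sources used here do not give its summarisation or scaling. Depth has no counterpart, and the number of arrays limits the precision. Of 45037 probe sets, 34945 had 1 gene symbol in the platform annotation, 932 several and 9160 none, and only the first were used. Groups and lines were taken from the titles. limma 3.58.1 in R 4.3.3 was fitted to log2(value + 32) with a mean for each of 15 groups (17 where the wild-type lines of day 0 were split), with 38 residual and 4.6 prior degrees of freedom. The pseudocount of 32 understates changes of dim genes. Benjamini-Hochberg adjustment ran over all 13807 genes of a comparison, and a call needed an adjusted p under 0.05 and 2-fold. Overlap between the arrays of groups was read for the keratins alone. The share of all genes without overlap was not counted, so a lack of overlap is a description and not a test. The members are always named. The 3 genes most alike in pattern and up to 4 called genes of each list with the smallest p could be named. Members and lists were chosen with earlier results of these data known. Leaving out wild-type replicates 4 to 7 of day 0, using Eed-null replicate 5 alone and the crossed pairing were added after seeing the data, and leaving out wild-type replicates 1 to 3 and the array sets were chosen with these values known. Same-numbered replicates of Ezh2-null and wild-type cells deviated together at day 2 (r from 0.57 to 0.7 over 4 pairs) and day 6 (0.38 to 0.72 over 5 pairs), where the numbers also follow the array set, and were read as pairs. The same check gave -0.016 to 0.29 for Ezh2-null day 0, -0.15 to 0.14 for Eed-null day 0, -0.047 to 0.053 for Eed-null day 2, -0.17 to 0.023 for Eed-null day 6 and -0.2 for Ezh2-null day 8, and these were not read as pairs. The fit was tested on simulated data.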

Additional observations from a re-analysis of the deposited data

Results flagged for a closer look

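The change of Krt7 over 6 days of LIF withdrawal differed between genotypes in limma's interaction test. The rise was larger than in wild-type cells by 1.30 ± 0.27 on the log2 scale in Ezh2-null cells (adjusted p = 0.000656) and by 1.02 ± 0.33 in Eed-null cells (adjusted p = 0.027). All 5 Ezh2-null and both Eed-null arrays of day 6 lay above the 5 wild-type arrays. This describes the level at day 6 and not the change. Eed-null cells were already higher than wild-type cells at day 0 (1.56 ± 0.19). The Eed-null interaction lay at the 2-fold minimum and was not called at the smaller alternative pseudocount (0.64). It was called in 10 of 19 fits that each left out a single array. Neither interaction was called with wild-type day 0 replicates 4 to 7 left out, a subset that follows the keratin values. Both interaction tests use the same wild-type arrays. Over 28 pairs of a keratin and a group of 4 to 7 arrays, Dixon's test for a single outlying array found 0. That test looks for 1 array apart from all others. It cannot flag a group that divides into parts, such as wild-type cells of day 0 or day 2, so its outcome does not show uniform groups.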

How the results depend on the processing

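Each keratin in each comparison was recomputed under the alternatives, 1452 values in all. Of these, 1354 kept their call or lack of one, 54 lost the call, 32 gained one and 12 turned direction with a call in either fit. Among the 1354, 55 values that were called in neither fit changed sign. Counts below are keratins called of 4, with the count as reported after "against". Quantile normalization gave 2 against 1 for Ezh2-null against Eed-null cells of day 0. The smaller pseudocount (8) gave 0 against 1 for the Eed-null interaction. The larger pseudocount gave 1 against 2 for Eed-null cells of day 0 and 0 against 1 for Ezh2-null against Eed-null cells of day 0, Eed-null cells of day 2, T-GFP against wild-type day 6 and NSC against Sox1-GFP. The filter at the 75th percentile gave 2 against 0 for CJ7 against J1. Array weights gave 1 against 2 for Eed-null cells of day 0, 0 against 3 for wild-type day 2 against day 0 (Krt8 -0.35, Krt19 -0.40), 2 against 0 for Ezh2-null cells of day 2 and CJ7 against J1, and 2 against 1 for both interactions. With only the arrays compared, the count was 1 against 2 for Eed-null cells of day 0, 2 against 1 for Ezh2-null against Eed-null, 0 against 3 for wild-type day 2 against day 0, 0 against 1 for T-GFP against day 6 and the Eed-null interaction, and 1 against 3 for Sox1-GFP and MEF against wild type. Line as a random block gave 0 against 1 for Eed-null cells of day 2, T-GFP against day 6, NSC against Sox1-GFP and the Eed-null interaction. The replicate block gave 1 against 2 for Eed-null cells of day 0 and 2 against 1 for those of day 6, where Krt19 was called (1.19). That fit of day 6 kept wild-type replicates 1 and 2, both J1 of the first array set, while both Eed-null arrays were of the second. Genotype and array set thus cannot be told apart in this Krt19 call. The block changed no other count of keratins. In the pairs of day 2 and day 6, the block gave Krt7 0.73 (adjusted p = 0.0234) and 1.47 in Ezh2-null cells. Crossed pairing at day 8, chosen after seeing the data, left 0 called. Array set as a block gave 2 against 1 for Eed-null cells of day 2, and the second set alone 2 against 4 for wild-type day 6 against day 2. Wild type of day 0 as J1 only gave 2 against 0 for Ezh2-null and 4 against 2 for Eed-null cells, 0 against 3 for Sox1-GFP (Krt8 0.33, Krt18 0.40) and 2 against 1 for both interactions. E14tg1 only gave 1 against 2 for Eed-null cells, 0 against 3 for day 2 and 3 against 1 for the Ezh2-null interaction (Krt8 1.29, Krt18 1.13). Replicates 4 to 7 only gave 2 against 0 for Ezh2-null cells (Krt8 -1.22, Krt18 -1.01), 1 against 2 for Eed-null cells, 0 against 3 for day 2 and 4 against 1 for the Ezh2-null interaction (Krt8 1.36, Krt18 1.22). Replicates 1 to 3 only, chosen after seeing the data, gave 2 against 0 for Ezh2-null and 4 against 2 for Eed-null cells, 0 against 3 for Sox1-GFP (Krt8 0.25, Krt18 0.32) and 2 against 1 for both interactions. Both of these subsets follow the keratin values themselves, so their counts are descriptions. Eed-null replicate 5 alone, also added later, gave 1 against 2 at day 0, 2 against 4 over 6 days and 0 against 1 for the interaction. Leaving out 1 array at a time gave 0 to 1 for the Eed-null interaction, Eed-null cells of day 2, NSC against Sox1-GFP and T-GFP against day 6, 0 to 4 for CJ7 against J1, 0 to 2 for E14tg1 against CJ7, and 1 to 3 for Sox1-GFP against wild type and for day 2. The cause of these changes was not tested. Signals near or below the array median, as for Krt7 at day 0, limit what can be seen.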
